A study of Mus musculus with 2 samples.

Results

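The genes described here are the germline gene families of the mouse: the reproductive homeobox genes (*Rhox*), the melanoma antigen genes (*Mage*), the testis expressed genes (*Tex* followed by a digit), and the genes of the synaptonemal complex and of the piRNA pathway. Members were taken by symbol from the mRNA-sequencing table of jejunal smooth muscle, as symbols beginning with *Rhox*, *Mage*, *Tex* and a digit, *Tdrd*, *Sycp*, *Piwil* or *Mov10l1*, together with *Dazl*, *Ddx4*, *Mael*, *Dpep3*, *Taf7l* and *Asz1*, and without *Magel2*. This gave 57 of the 18159 listed genes. Of these, 13 are known to be expressed well outside the germline, among them *Maged1* and *Maged2*, and served as an inner comparison. The other 44 are called germline members.

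The muscle layer of the jejunum, the tunica muscularis, was taken from mice aged 15 days, and each genotype, *Dnmt1*-WT and *Dnmt1*-KO, has 1 library. Mice of both groups were on a C57BL/6 background and carried the transgene Myh11-cre,-EGFP, in which Cre recombinase and green fluorescent protein are driven by the *Myh11* promoter of smooth muscle cells. The labels name the floxed allele *Dnmt1* lox/lox for both, while the study describes the *Dnmt1*-WT mice as carriers of the transgene. Mice of both sexes were used per the methods, and how their RNA was combined is not stated. Cre removes *Dnmt1* only in smooth muscle, so the other cells of the muscle wall keep the gene. The free-text description of both samples names the knockout, and the sample whose title and genotype label give *Dnmt1* WT was taken as such. The targeted gene, *Dnmt1*, had 11.58 FPKM in *Dnmt1*-WT against 7.58 FPKM in *Dnmt1*-KO, lower in the library labelled KO. FPKM expresses the level of a gene as sequenced fragments relative to transcript length and library size.

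Germline genes are active in developing sperm and egg cells and are kept silent in most somatic cells, many of them by methylation of CpG sites at their promoters, which DNMT1 copies to the new strand at each cell division. The *Rhox* genes are transcription factors in a dense cluster on the X chromosome and are expressed in testis, ovary and placenta. PIWI proteins carry piRNAs, small RNAs that silence transposons in germ cells, and TDRD proteins, ASZ1, MOV10L1 and DDX4 act in making or using them.

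With 1 library per genotype no difference below could be set against a spread between replicates, no test between genotypes was possible, and no p-value is given. The read counts behind single genes are unknown, so values near the lower end of the scale, where 0.03 FPKM was the lowest value above 0, can rest on very few fragments. In bulk tissue a larger number of cells of a type and more RNA per cell cannot be told apart.

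Promoter sequences of 6 members are printed because they show how differently CpG sites are spread over them. *Rhox5*, *Dpep3*, *Tex19.1*, *Taf7l* and *Asz1* stood at 0 FPKM in *Dnmt1*-WT and among the highest germline members in *Dnmt1*-KO, and *Ddx4* was the reverse at a very low level. Each run holds the 250 bases before the start given for the gene in a promoter table, in GRCm38.p6. It is read 5′ to 3′ on the strand of the gene, with CpG sites in capitals. The run of *Taf7l* overlaps the RefSeq gene in part, and that of *Ddx4* lies wholly inside the RefSeq gene.
Rhox5: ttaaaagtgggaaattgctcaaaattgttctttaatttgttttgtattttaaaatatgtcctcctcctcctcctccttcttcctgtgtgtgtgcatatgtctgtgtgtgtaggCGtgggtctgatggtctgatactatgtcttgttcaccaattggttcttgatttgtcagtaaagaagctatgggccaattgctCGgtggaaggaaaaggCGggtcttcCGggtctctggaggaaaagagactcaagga
Dpep3: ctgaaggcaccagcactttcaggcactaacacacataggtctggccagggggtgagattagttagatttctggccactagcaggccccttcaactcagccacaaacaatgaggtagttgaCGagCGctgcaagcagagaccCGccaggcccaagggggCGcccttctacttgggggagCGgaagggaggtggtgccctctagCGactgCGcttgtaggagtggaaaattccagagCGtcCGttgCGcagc
Tex19.1: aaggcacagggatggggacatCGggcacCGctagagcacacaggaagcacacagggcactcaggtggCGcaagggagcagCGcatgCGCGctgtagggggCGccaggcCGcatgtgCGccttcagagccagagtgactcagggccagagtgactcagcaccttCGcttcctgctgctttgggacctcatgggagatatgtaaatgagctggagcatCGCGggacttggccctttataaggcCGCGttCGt
Taf7l: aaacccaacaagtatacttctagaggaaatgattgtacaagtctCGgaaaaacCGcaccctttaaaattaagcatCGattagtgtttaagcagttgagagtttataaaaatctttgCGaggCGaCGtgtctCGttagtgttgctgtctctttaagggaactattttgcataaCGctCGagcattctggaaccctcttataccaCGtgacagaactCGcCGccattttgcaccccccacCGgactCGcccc
Asz1: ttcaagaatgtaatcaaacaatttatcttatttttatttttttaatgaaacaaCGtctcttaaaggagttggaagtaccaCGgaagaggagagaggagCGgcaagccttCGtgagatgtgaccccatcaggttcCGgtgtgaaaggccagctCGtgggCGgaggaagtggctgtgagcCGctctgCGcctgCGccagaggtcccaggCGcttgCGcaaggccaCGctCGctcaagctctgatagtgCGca
Ddx4: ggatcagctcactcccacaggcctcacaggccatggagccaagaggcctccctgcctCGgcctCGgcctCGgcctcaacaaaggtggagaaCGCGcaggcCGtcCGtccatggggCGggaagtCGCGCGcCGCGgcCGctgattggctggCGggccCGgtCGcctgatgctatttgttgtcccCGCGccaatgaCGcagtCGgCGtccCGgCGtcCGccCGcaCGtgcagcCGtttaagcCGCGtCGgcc
The windows lie at chrX:37754358-37754607 (plus strand) for *Rhox5*, chr8:105979420-105979669 (minus strand) for *Dpep3* and chr11:121145893-121146142 (plus strand) for *Tex19.1*. Those of *Taf7l*, *Asz1* and *Ddx4* lie at chrX:134476491-134476740, chr6:18109062-18109311 and chr13:112652311-112652560, all on the minus strand. The number of CpG sites was 4 in *Rhox5*, 10 in *Dpep3*, 15 in *Tex19.1*, 14 in *Taf7l*, 15 in *Asz1* and 31 in *Ddx4*.

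The main pattern was one of genes listed at 0 FPKM in *Dnmt1*-WT and detected in *Dnmt1*-KO. Of the 44 germline members, 32 had 0 FPKM in *Dnmt1*-WT, and 25 of these exceeded 0 in *Dnmt1*-KO, a share of 78.1%. Over all listed genes at 0 FPKM in *Dnmt1*-WT the share was 62.4%, or 953 of 1527, so presence alone set the members little apart. The shares differed more at higher levels. Of the same 32 members, 19 reached 0.1 FPKM (59.4%, against 38.6% of all such genes), 13 reached 0.3 FPKM (40.6%, against 16.8%) and 7 reached 1 FPKM (21.9%, against 4.98%). The plot of shares by level shows the members above both other groups at each of these levels. The opposite pattern was rare among the members: 9 were listed at 0 FPKM in *Dnmt1*-KO and 2 of these, *Piwil4* and *Ddx4*, were above 0 in *Dnmt1*-WT, a share of 22.2% against 48% of all genes at 0 FPKM in *Dnmt1*-KO. The number of transcript variants deposited for each library was 0 exactly where the FPKM was 0 for all 57 members.

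**Figure D1:**
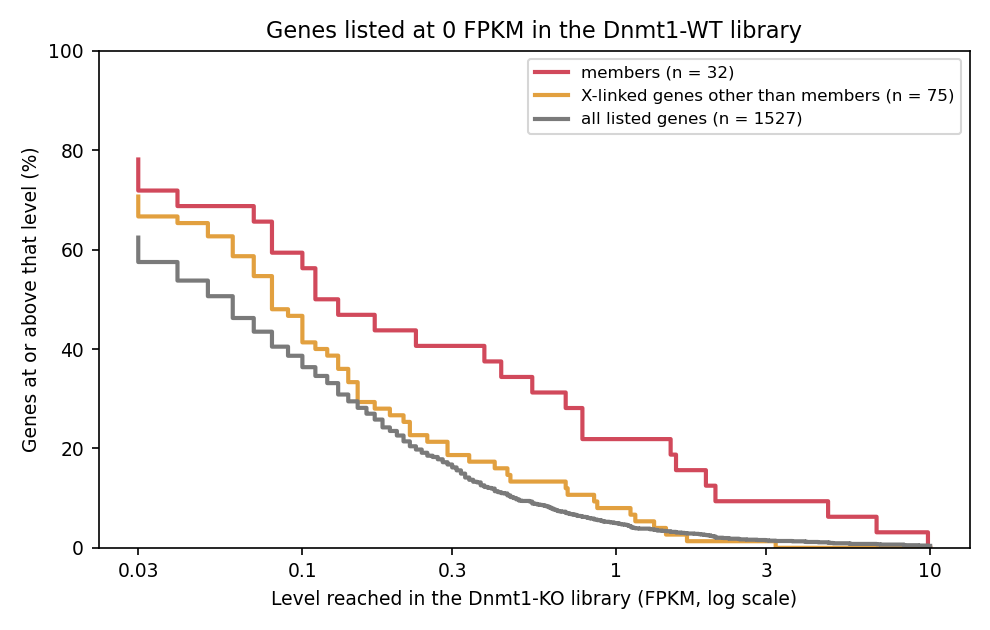
Share of the genes at 0 FPKM in *Dnmt1*-WT (vertical axis, percent) that were at or above a level in *Dnmt1*-KO (horizontal axis, FPKM, log scale), for the 32 members, 75 X-linked genes other than members and all 1527 genes. At 1 FPKM the lines stand at 21.9%, 8% and 4.98%.

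On the log2 ratio of FPKM + 0.1, 20 of the 37 germline members above 0 FPKM in at least 1 library were at least doubled in *Dnmt1*-KO (54.1%) and 1 was at most halved. The count of 20 was 7 with 1 FPKM added in place of 0.1 and 7 among members at 1 FPKM or more in a library. At a fold of 4 it was 13. Shares over all genes were not computed at these other settings. Among all genes above 0 FPKM in at least 1 library, 12.4% were at least doubled and 4.82% at most halved, and among genes below 1 FPKM in *Dnmt1*-WT, which includes all germline members, these shares were 33.1% and 7.89%. The median log2 ratio was 1.07 for the germline members and 0.02 for all genes. Summed over the 44 germline members, the level was 2.65 FPKM in *Dnmt1*-WT and 35.65 FPKM in *Dnmt1*-KO. Most of the *Dnmt1*-KO sum came from a few genes, since *Rhox6*, *Dpep3* and *Rhox5* were listed there at 9.84, 6.75 and 4.73 FPKM.

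**Figure D2:**
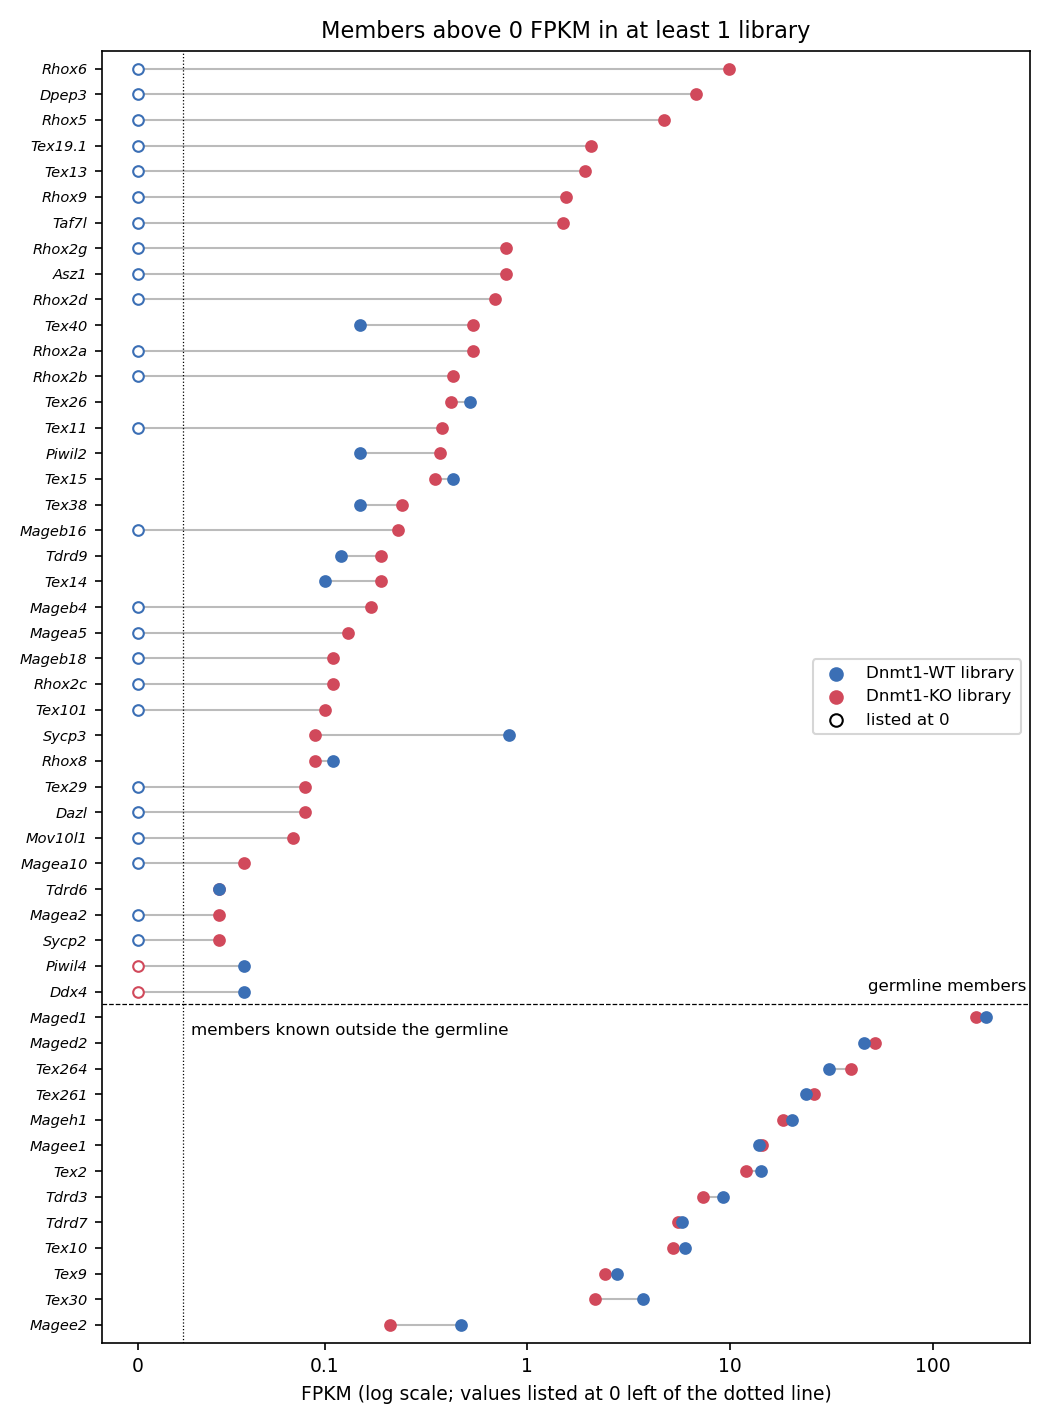
Level of each member above 0 in at least 1 library (FPKM, log scale) in the *Dnmt1*-WT and *Dnmt1*-KO libraries, each point 1 library and each row 1 gene; open points are listed at 0, and the equal points of *Tdrd6* coincide. The 25 germline members with an open *Dnmt1*-WT point reach from 0.03 to 9.84 FPKM in *Dnmt1*-KO, whereas the 13 members below the dashed line have *Dnmt1*-KO levels of 0.45 to 1.28 times those in *Dnmt1*-WT.

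*Rhox6* had the highest *Dnmt1*-KO level of any germline member. *Rhox6*, a homeobox gene known from placenta and germ cells, was listed at 0 FPKM in *Dnmt1*-WT and 9.84 FPKM in *Dnmt1*-KO. *Rhox5*, the first described member of the cluster and a regulator in Sertoli cells, was at 0 and 4.73 FPKM. *Rhox9*, a close relative of *Rhox6*, was at 0 and 1.55 FPKM. By level in *Dnmt1*-KO, *Rhox6* ranked 7, *Rhox5* ranked 17 and *Rhox9* ranked 48 of the 953 genes above 0 there and at 0 in *Dnmt1*-WT. *Rhox6* lay above 62% of all genes detected in the *Dnmt1*-KO library.

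The copies of *Rhox2* were lower. In *Dnmt1*-WT all 5 listed copies were at 0 FPKM, and in *Dnmt1*-KO *Rhox2g* was at 0.78, *Rhox2d* at 0.69, *Rhox2a* at 0.54, *Rhox2b* at 0.43 and *Rhox2c* at 0.11 FPKM. The levels of single copies are uncertain, because the copies share long stretches of sequence. Of the 50-base stretches of their GENCODE M21 transcripts, 91.1% in *Rhox2a*, 82.3% in *Rhox2b* and 72.5% in *Rhox2c* occur in another gene as well. The shares were 51.3% in *Rhox2g* and 44.7% in *Rhox2d*. In each case the genes that shared the most stretches were other *Rhox2* copies. The sum over the 5 copies was 2.55 FPKM in *Dnmt1*-KO. For *Rhox5* no such stretch is shared, and for *Rhox6* 16.5% are, with *Rhox9*. *Rhox8*, a Sertoli cell gene, was the only listed *Rhox* gene above 0 FPKM in *Dnmt1*-WT, at 0.11 FPKM, with 0.09 FPKM in *Dnmt1*-KO.

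In all, 8 of the 9 listed *Rhox* genes were at 0 FPKM in *Dnmt1*-WT and above 0 in *Dnmt1*-KO, and the same 8 were at least doubled on FPKM + 0.1. The shares over X-linked genes other than members were 70.7% above 0 in *Dnmt1*-KO, of those at 0 in *Dnmt1*-WT, and 32% doubled, of those below 1 FPKM. The table lists 9 of the 33 protein-coding *Rhox* genes of RefSeq, and the other 24 have no value here. What decided whether a gene was listed is not given in the sources used here. If a value above 0 in either library bears on it, shares among genes at 0 FPKM in *Dnmt1*-WT are raised. Whether they are raised equally for members and for other genes was not tested.

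The protein-coding genes of the cluster span chrX:37213804-38129966 in GRCm38.p6, and *Rhox6* lies at chrX:37827055-37829857, *Rhox5* at chrX:37754608-37808878 and *Rhox9* at chrX:37899097-37901770. Most genes on either side had similar levels in both libraries. Within 1 Mb of the cluster 23 other genes were listed, 22 of them above 0 FPKM in at least 1 library, with a median log2 ratio of -0.04 over these 22. On FPKM + 0.1, 2 of these were at least doubled and 0 at most halved, beside 12.4% and 4.82% of all genes. *Lonrf3*, at 2.99 and 1.47 FPKM, had a plain ratio of 0.49. *Gm9*, whose start lies at -5.30 kb from that of the first *Rhox* gene, was at 0 FPKM in *Dnmt1*-WT and 0.34 FPKM in *Dnmt1*-KO, and *Rpl39*, a ribosomal protein gene, was at 404.68 and 1044.66 FPKM. These 3 genes were named here after their values were seen.

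**Figure D3:**
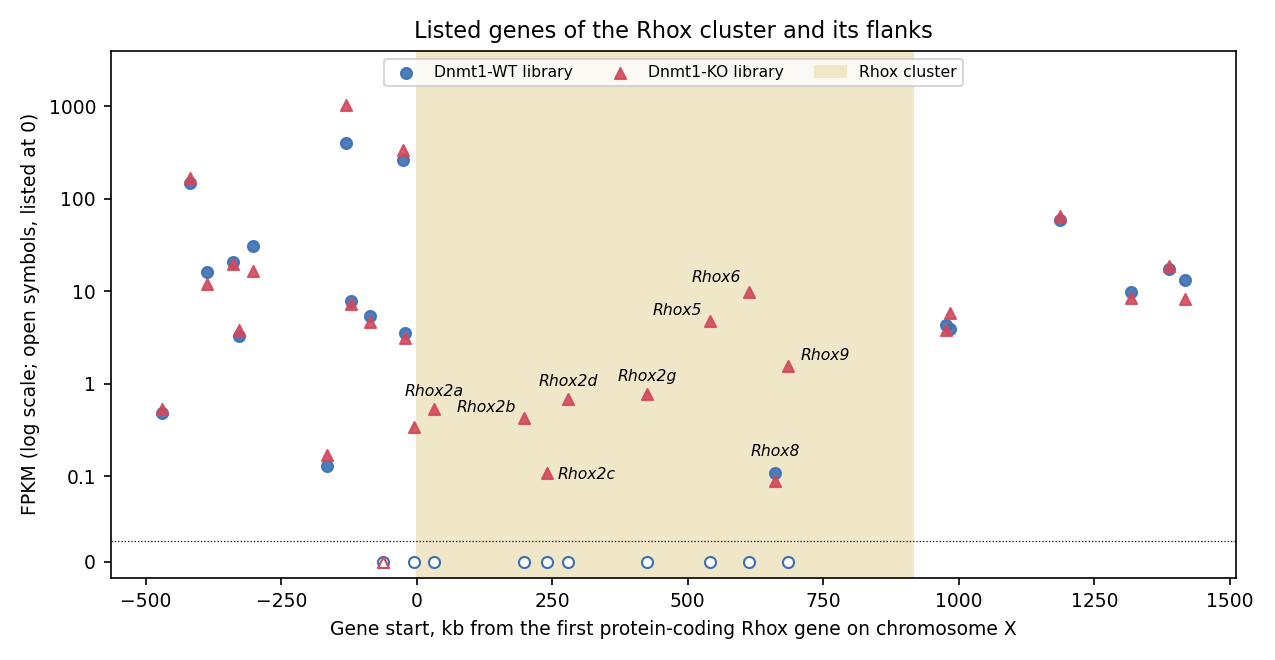
Levels (FPKM, log scale) of listed genes in and around the *Rhox* cluster by the distance of their start from that of the first protein-coding *Rhox* gene (kb), with circles for *Dnmt1*-WT, triangles for *Dnmt1*-KO and open symbols for values listed at 0. Within the shaded cluster 8 of 9 genes pass from 0 in *Dnmt1*-WT to 0.11 to 9.84 FPKM in *Dnmt1*-KO, while most flanking genes have nearly overlapping symbols.

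Several autosomal and X-linked genes outside the cluster reached levels like those of *Rhox9*. *Dpep3*, a membrane-bound dipeptidase of testis on chromosome 8, was at 0 FPKM in *Dnmt1*-WT and 6.75 FPKM in *Dnmt1*-KO. *Tex19.1* on chromosome 11, which restrains retrotransposons in germ cells and placenta, was at 0 and 2.07 FPKM. *Tex13* on the X chromosome, a testis gene that RefSeq calls *Tex13b*, was at 0 and 1.93 FPKM. *Taf7l* on the X chromosome, a paralogue of the TFIID subunit gene *Taf7* that is known from germ cells and also from adipocytes, was at 0 and 1.49 FPKM. Among the 953 genes these ranked 12, 33, 40 and 50 by level. Apart from 2.67% of the 50-base stretches of *Tex19.1*, shared with *Tex19.2*, none of their transcript sequence was shared with another gene.

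Neighbouring genes of these members gave a mixed picture. *Slc12a4* and *Dpep2*, on either side of *Dpep3*, were at 22.15 and 0.62 FPKM in *Dnmt1*-WT and at 29.13 and 1.55 FPKM in *Dnmt1*-KO. *Sectm1a* and *Ogfod3*, beside *Tex19.1*, were at 0.36 and 11.28 FPKM in *Dnmt1*-WT and at 3.04 and 12.26 FPKM in *Dnmt1*-KO. *Drp2* and *Timm8a1*, beside *Taf7l*, were at 1.15 and 10.88 FPKM in *Dnmt1*-WT and 1.36 and 11.02 FPKM in *Dnmt1*-KO. *Mid2* and *Psmd10*, beside *Tex13*, were at 13.91 and 9.47 FPKM in *Dnmt1*-WT and 10.02 and 8.94 FPKM in *Dnmt1*-KO. As plain ratios of *Dnmt1*-KO to *Dnmt1*-WT, these 8 neighbours lay between 0.72 for *Mid2* and 8.44 for *Sectm1a*, and only *Sectm1a* and *Dpep2* exceeded 2.

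The other germline *Tex* genes were low or listed at 0. *Tex11*, an X-linked gene needed for crossing over in male meiosis, was at 0 FPKM in *Dnmt1*-WT and 0.38 FPKM in *Dnmt1*-KO, between *Dlg3* at 15.5 and 9.84 FPKM and *Slc7a3* at 0.55 and 0.75 FPKM. *Tex40* was at 0.15 and 0.54 FPKM; RefSeq gives this symbol as a synonym of more than one gene, so it has no position here. *Tex101*, a sperm surface glycoprotein gene, was at 0 and 0.1 FPKM. These 3 genes, with *Tex19.1* and *Tex13*, made up the 5 germline *Tex* genes at least doubled on FPKM + 0.1, of 15 listed and 10 above 0 in at least 1 library, beside 33.1% of all genes below 1 FPKM in *Dnmt1*-WT. *Tex101* lay exactly at the limit, with a log2 ratio of 1 that became 0.95 after scaling by the FPKM sum. *Tex26* was slightly lower in *Dnmt1*-KO, at 0.52 and 0.42 FPKM, and so was *Tex15*, a gene of male meiosis and transposon silencing, at 0.43 and 0.35 FPKM. Of the other germline *Tex* genes, *Tex14*, *Tex29* and *Tex38* stood between 0 and 0.24 FPKM in either library, and *Tex12*, *Tex13a*, *Tex22*, *Tex36* and *Tex37* were listed at 0 FPKM in both.

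The germline *Mage* genes, testis genes often switched on in tumours, appeared in *Dnmt1*-KO at the low end of the scale. All 6 were at 0 FPKM in *Dnmt1*-WT and above 0 in *Dnmt1*-KO, and 4 were at least doubled on FPKM + 0.1. Of all genes at 0 FPKM in *Dnmt1*-WT 62.4% were above 0 in *Dnmt1*-KO, and 70.7% of the X-linked ones that are no members, while 33.1% of genes below 1 FPKM were doubled. *Mageb16* was at 0.23, *Mageb4* at 0.17, *Magea5* at 0.13 and *Mageb18* at 0.11 FPKM in *Dnmt1*-KO, and the other 2 at 0.03 and 0.04 FPKM. None reached 0.3 FPKM, and their sum was 0.71 FPKM. Of the 50-base stretches of *Mageb16*, *Mageb4* and *Magea5*, 55.1%, 50.1% and 46.2% are shared with related genes or pseudogenes, so their levels are uncertain, whereas *Mageb18* shares none. The table lists 9 of 19 RefSeq protein-coding *Mage* genes outside the *Maged* group.

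The piRNA pathway members did not move as one. *Asz1*, which anchors piRNA processing at mitochondria of germ cells, was at 0 FPKM in *Dnmt1*-WT and 0.78 FPKM in *Dnmt1*-KO, the only 1 of the 7 germline piRNA pathway members above 0 in at least 1 library to be at least doubled on FPKM + 0.1, beside 33.1% of all genes below 1 FPKM in *Dnmt1*-WT. *Piwil2*, the gene of the PIWI protein MILI, was at 0.15 and 0.37 FPKM, which is 2.47 times higher in *Dnmt1*-KO as a plain ratio and 0.91 on the log2 scale of FPKM + 0.1. *Piwil4*, the gene of the nuclear PIWI protein MIWI2, was at 0.04 and 0 FPKM. Among their partners, *Mov10l1*, a helicase gene that acts on piRNA precursors, was at 0 and 0.07 FPKM, and *Ddx4*, the germ cell helicase gene also called *Vasa*, was at 0.04 and 0 FPKM. The 4 germline *Tdrd* genes did not exceed 0.19 FPKM in either library, and *Tdrd5* and *Tdrd12* were listed at 0 FPKM in both. *Mael*, *Piwil1* and *Tdrd1* have no value here. The low neighbours of *Asz1* were higher in *Dnmt1*-KO too, with *Wnt2* at 0.09 and 0.55 FPKM and *Cftr* at 0.13 and 0.49 FPKM.

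The listed *Sycp* genes, of the meiotic chromosome axis, went in opposite directions. *Sycp3*, which builds the lateral element of the synaptonemal complex, was at 0.81 FPKM in *Dnmt1*-WT, the highest level of any germline member in that library, and 0.09 FPKM in *Dnmt1*-KO, and was the only member at most halved. It overlaps *Chpt1* on chromosome 10, which was at 20.33 and 25.58 FPKM, and the part of the overlap in the value of *Sycp3* was not tested. Its partner *Sycp2* was at 0 and 0.03 FPKM, and *Sycp1* has no value here. *Dazl*, an RNA-binding protein gene of germ cells whose silencing in somatic cells is often used as a mark of promoter methylation, was at 0 FPKM in *Dnmt1*-WT and only 0.08 FPKM in *Dnmt1*-KO.

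The chromosome on which a member lies went along with these differences. Of 18 X-linked germline members at 0 FPKM in *Dnmt1*-WT, 17 were above 0 in *Dnmt1*-KO (94.4%), 15 were at 0.1 FPKM or more (83.3%) and 10 at 0.3 FPKM or more (55.6%). The shares among 75 other X-linked genes at 0 FPKM in *Dnmt1*-WT were 70.7%, 46.7% and 18.7%. Of 14 other germline members at 0 FPKM in *Dnmt1*-WT, 8 were above 0 in *Dnmt1*-KO (57.1%) and 4 were at 0.1 FPKM or more (28.6%), below the 62.4% and 38.6% over all genes. At 0.3 FPKM or more were 3 (21.4%), and at 1 FPKM or more 2 (14.3%), beside 16.8% and 4.98% over all genes. On FPKM + 0.1, 15 of the 18 X-linked germline members above 0 in at least 1 library were at least doubled (83.3%), against 32% of 197 other X-linked genes below 1 FPKM in *Dnmt1*-WT. Of the 19 other germline members above 0, 5 were at least doubled (26.3%), below the 33.1% of all genes under 1 FPKM in *Dnmt1*-WT. *Tex40*, which has no position here, is counted among these 19 and these 5. The median log2 ratio was 2.33 over the X-linked 18, 0.54 over the 19 other germline members and -0.03 over X-linked genes that are no members. Of these X-linked 18, 9 are neighbours or copies with shared sequence in the *Rhox* cluster, so they are not independent of each other.

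The members known outside the germline were all above 0 FPKM in both libraries. *Maged1*, an adaptor of cell death and differentiation pathways, was at 183.49 FPKM in *Dnmt1*-WT and 162.78 FPKM in *Dnmt1*-KO. *Maged2*, a regulator of salt transport in kidney, was at 45.68 and 51.53 FPKM. *Tex264*, an endoplasmic reticulum receptor for autophagy, was at 30.61 and 39.28 FPKM, the highest ratio of the 13 at 1.28. At lower levels, *Tex261* was at 23.69 and 26.03 FPKM and *Mageh1* at 20.08 and 18.15 FPKM. *Magee1* was at 13.91 and 14.31 FPKM and *Tex2* at 14.24 and 11.94 FPKM. Among the tudor domain genes, *Tdrd3*, an effector of arginine methylation marks, was at 9.17 and 7.35 FPKM, and *Tdrd7*, known from lens and germ cells, was at 5.8 and 5.5 FPKM.

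The remaining genes of these 13 stood below their *Dnmt1*-WT level, with plain ratios from 0.87 in *Tex9* to 0.45 in *Magee2*. The loss of *Magee2* exceeds a halving without the added 0.1. *Tex10* was at 6.02 and 5.2 FPKM, *Tex9* at 2.78 and 2.41 FPKM, *Tex30* at 3.7 and 2.15 FPKM and *Magee2* at 0.47 and 0.21 FPKM. Of the 13 genes, 0 were at least doubled and 0 at most halved on FPKM + 0.1, beside 12.4% and 4.82% of all genes above 0. Counts of 0 among 13 genes lie close to these shares. In *Dnmt1*-KO 4 were higher and 9 lower (3 and 10 after scaling by the FPKM sum, which turns *Magee1*), with a median log2 ratio of -0.17. Of all 17585 genes above 0, 8440 were lower. *Tex9* and *Tex10* overlap the genes *Mns1* and *Invs*, and whether counting used the strand is not stated. The sum over the 13 genes was 359.64 FPKM in *Dnmt1*-WT and 346.84 FPKM in *Dnmt1*-KO. These 13 genes and the germline members also differ in level. All of the 13 but *Magee2* exceeded 1 FPKM in *Dnmt1*-WT, and no germline member did. The part of level in the contrast between these groups was not tested.

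Promoter sequence separated these groups only in part. The CpG observed over expected ratio is the number of CpG sites over that expected from the C and G content. It was taken over 300 bases, from 250 before to 50 after the start given in the promoter table. That start lies inside the RefSeq gene for some members, *Tex9*, *Rhox2b* and *Ddx4* among them. The promoter table has an entry for 47 members. *Rhox6*, *Rhox9* and *Tex11* are among the 10 without one, so the highest germline member is missing from these groups. The median ratio was 0.48 for 10 germline members at 0 FPKM in *Dnmt1*-WT and at 0.3 FPKM or more in *Dnmt1*-KO. It was 0.42 for 12 that stayed below 0.3 FPKM, 0.41 for 5 at 0 in both and 0.67 for 7 above 0 in *Dnmt1*-WT. It was 0.71 for the 13 members known outside the germline and 0.39 over all 27025 promoters of the table. The 10 members at 0.3 FPKM or more spread widely, from 0.31 in *Rhox2g* and 0.36 in *Rhox5* to 0.78 in *Asz1* and 1.03 in *Taf7l*, and the 12 below 0.3 FPKM spread from 0 in *Magea5* to 0.80 in *Dazl*. *Ddx4*, at 0.98, and *Dazl* thus had CpG-rich promoters and stayed at or near 0 FPKM. Methylation of these promoters was not analysed here.

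**Figure D4:**
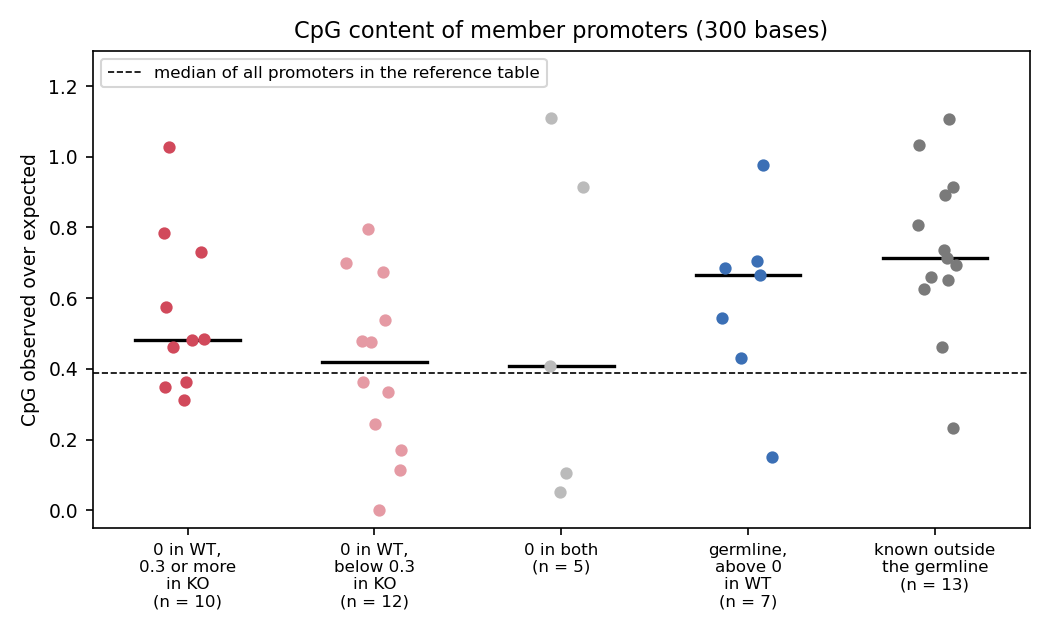
CpG observed over expected ratio (vertical axis, no unit) of the 300-base promoter of each member, grouped by its level in the *Dnmt1*-WT and *Dnmt1*-KO libraries in FPKM, with group medians as bars. The groups overlap, with medians of 0.48, 0.42, 0.41, 0.67 and 0.71 from left to right and 0.39 over all promoters (dashed).

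The promoters were also searched for GCGGGA on either strand, the core of the site bound by E2F factors, and for the palindrome CACGTG, bound by MAX and related factors, since E2F6 and MAX belong to repressors of germline genes. Neither motif contains the other, and each was counted separately. GCGGGA occurred in 7 of 34 germline member promoters (20.6%) and in 20% of all promoters of the table. By level these were 1 of 10 promoters of members at 0 FPKM in *Dnmt1*-WT and 0.3 FPKM or more in *Dnmt1*-KO, 0 of 12 of those below 0.3 FPKM, 2 of 5 at 0 in both and 4 of 7 above 0 in *Dnmt1*-WT. Among the members known outside the germline it was in 9 of 13 (69.2%). CACGTG occurred in 7 of the 34 (20.6%) and in 7.24% of all promoters, with 1 of 10, 1 of 12, 2 of 5 and 3 of 7 in the same order, and in 1 of the 13. In the first of these groups *Tex19.1* held GCGGGA and *Taf7l* held CACGTG.

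Genes that are no members were taken from lists of piRNA pathway genes, of meiosis genes and of further germline genes known to depend on DNA methylation. Without the members *Tex11* and *Tex101*, these lists held 44 genes together, of which 37 were listed. Of the 35 above 0 FPKM in at least 1 library, 19 were at least doubled on FPKM + 0.1 and 1 was at most halved, beside 12.4% doubled among all genes above 0 and 33.1% among those below 1 FPKM in *Dnmt1*-WT. Some of these 35, *Mov10* and *Nanos3* among them, were above 1 FPKM in *Dnmt1*-WT. Of 20 listed at 0 FPKM in *Dnmt1*-WT, 18 were above 0 in *Dnmt1*-KO, beside 62.4% of all genes at 0 there. *Syce2*, a central element gene of the synaptonemal complex, was at 0.84 and 3.42 FPKM. *Sohlh2*, a transcription factor gene of early germ cells, was at 0 and 1.35 FPKM. *Gpat2*, a piRNA pathway gene, was at 0.18 and 1.65 FPKM.

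Among the methylation-dependent genes the tubulin genes of testis *Tuba3a* and *Tuba3b* were at 0 FPKM in *Dnmt1*-WT and at 1.32 and 2.19 FPKM in *Dnmt1*-KO. The X-linked genes *Xlr4a* and *Xlr4b* were at 0 and 0.25 FPKM in *Dnmt1*-WT and at 1.32 and 1.38 FPKM in *Dnmt1*-KO. *Mov10*, from the list of piRNA pathway genes, is the somatic paralogue of *Mov10l1* and was at 3.73 and 7.63 FPKM. It is counted among the doubled genes of these lists. Of 13 silencing genes above 0 FPKM in at least 1 library, *Dnmt1* among them, 12 were lower and 1 higher in *Dnmt1*-KO (10 and 3 after median centring), beside 8440 lower of all 17585 genes above 0, with 0 doubled, 0 halved and a median log2 ratio of -0.25.

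Cell type markers also differed between the libraries. The summed level of 10 smooth muscle genes was 17017 FPKM in *Dnmt1*-WT and 12273 FPKM in *Dnmt1*-KO, with all 10 lower, so the tissue carried its defining markers in both. Sums were 28.93 and 95.09 FPKM over 8 leukocyte genes, all of them doubled, 109.79 and 1204.6 FPKM over 7 adipocyte genes, all of them doubled, and 476.68 and 1035.98 FPKM over 8 enterocyte genes, of which 4 were doubled and 1 halved. Their part in the levels of the members was not tested.

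Genes of the tissues where the members are known to act were few. Of 10 somatic testis genes 5 were listed, with sums of 3.38 and 4.27 FPKM, and 1 was doubled, *Dhh*, at 0.72 and 1.92 FPKM. *Fshr*, *Cyp17a1*, *Cyp11a1*, *Hsd17b3* and *Hsd3b6* have no value here. Of 12 spermatid genes 6 were listed, 1 of them at 0 FPKM in both libraries, 2 doubled and 2 halved on FPKM + 0.1, and their sums were 2.13 and 1.58 FPKM. Of 11 oocyte and ovary genes 6 were listed, *Zp3* and *Figla* at 0 FPKM in both, with sums of 0.65 and 0.84 FPKM. Of 8 trophoblast genes 4 were listed, and apart from *Hand1*, also a gene of gut mesenchyme, at 128.37 and 43.6 FPKM, none exceeded 0.19 FPKM. Their part in the levels of the members was not tested.

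**Figure D5:**
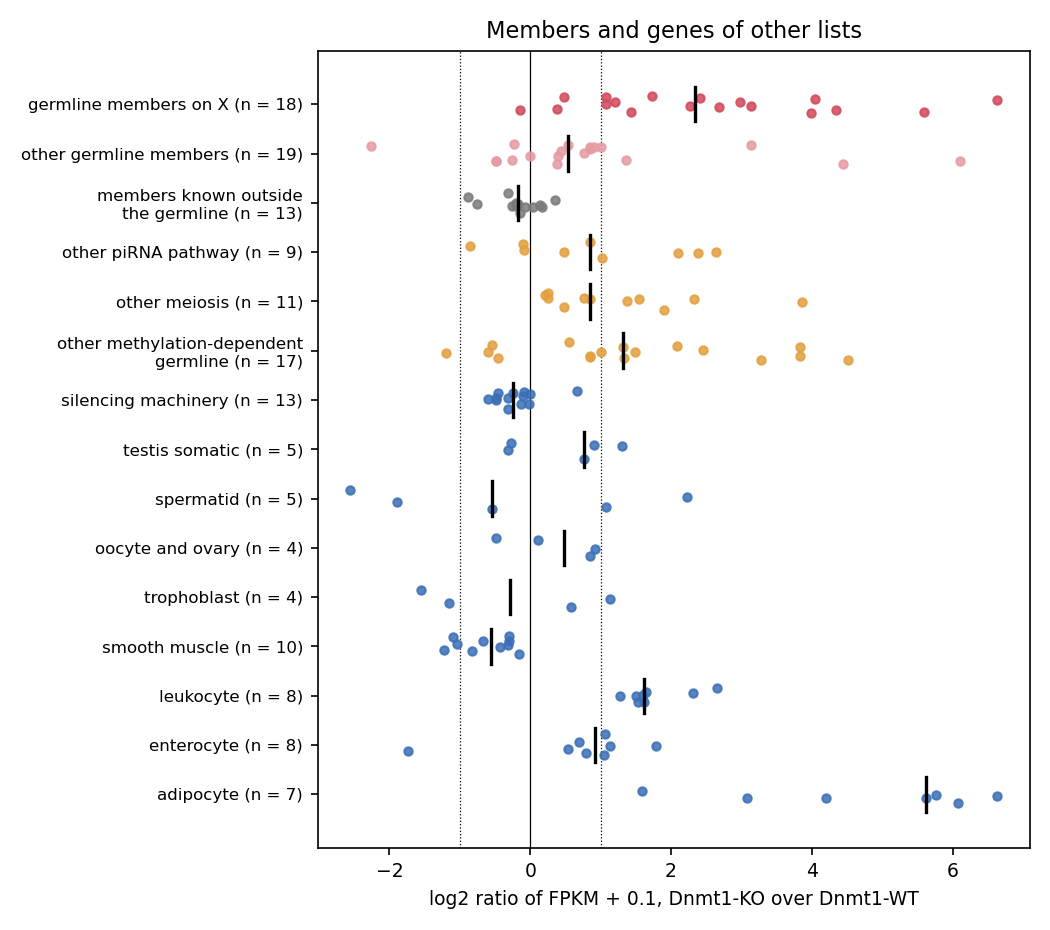
Log2 ratio of FPKM + 0.1, *Dnmt1*-KO over *Dnmt1*-WT, for each gene above 0 in at least 1 library, by list, with 1 point per gene, black bars for medians and dotted lines at a doubling and a halving; vertical scatter within a row carries no value. Germline members on the X chromosome have a median of 2.33, the 13 members known outside the germline -0.17, and adipocyte markers 5.62.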

How the data were processed

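The authors prepared TruSeq RNA libraries, mapped reads to GRCm38 (mm10) and deposited, for each gene symbol, FPKM for 1 library per genotype, the number of transcript variants found, and their own ratio of the libraries. That ratio was not used. The submitters' processing notes name TopHat 1.4.1 and Cufflinks 2.0.2 without a role. Depth per gene is unknown.

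Separators within numbers were removed. Ratios are log2 ratios of FPKM + 0.1 over genes above 0 in at least 1 library, which understate changes of low genes. Called genes were at least doubled or at most halved, and no test was run. Symbols of 56 of the 57 members were matched to RefSeq GRCm38.p6, which gave positions. Promoters were placed at the starts of the promoter table, some of which differ from the RefSeq start of the gene. Counting past a fold was tested on simulated data, made only from genes at 1 FPKM or more in *Dnmt1*-WT. All germline members were below that level, so the simulation does not bear on their counts. Members and lists were chosen with earlier results of these data known.

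Named with values are members at 0.3 FPKM or more in a library, members at 0 in one library and at 0.1 FPKM or more in the other, members known outside the germline, *Dazl*, *Ddx4*, *Dpep3*, *Taf7l*, *Asz1*, *Mov10l1*, *Sycp* and *Piwil* genes, and genes of other lists past 2-fold at 1 FPKM or more in at least 1 library. Marker genes of cell types are given as sums, and neighbours by position. Alternatives were other scalings, pseudocounts, filters, folds and detection levels. Python 3.11.15, numpy 2.4.6, pandas 2.3.3 and matplotlib 3.10.9 were used.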

Additional observations from a re-analysis of the deposited data

How the results depend on the processing

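No paired analysis was possible because each genotype has 1 library. Counts of members depended on how low values were treated, and shares of all genes doubled or halved were not computed at the alternative settings. Of the 20 members at least doubled, 7 were counted with a pseudocount of 1 FPKM, 7 when at least 1 FPKM in a library was asked for, and 13 at a fold of 4. The count of members at most halved, 1, was 4 with a pseudocount of 0.01 FPKM, 3 at a fold of 1.5, and 0 both with a pseudocount of 1 FPKM and among members at 1 FPKM or more. Members at 0 in *Dnmt1*-WT and above 0 in *Dnmt1*-KO numbered 25, and 7 both among members at 1 FPKM or more and with detection set at 1 FPKM. The median log2 ratio of all members above 0, 0.51, was 1.89 with a pseudocount of 0.01 FPKM, 0.11 with 1 FPKM, 0.91 among members at 0.1 FPKM or more and 0.14 among those at 1 FPKM or more. Scaling by the FPKM sum, which shifted log2 ratios by up to 0.10 and less for low genes, moved the median of the members known outside the germline from -0.17 to -0.27 and that of the *Maged* genes to -0.10, and turned 1 of 42 named genes, *Magee1*, from higher to lower. Median centring and upper quartile scaling turned none of the 42.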
